A study of Mus musculus with 14 samples.

Results

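Collagen and basement membrane genes were followed through the arrays of mouse small intestine as a set of 50 genes, measured by 80 probe sets. The set held every collagen chain gene and every laminin chain gene with a probe set annotated to that symbol alone, together with Nid1, Nid2, Hspg2 and Agrn, out of 12393 genes and 20380 probe sets with 1 symbol. It comprised 9 fibrillar collagens, 9 fibril-associated collagens, 3 beaded filament collagens, 8 basement membrane collagens, 2 epithelial anchoring collagens, 5 other collagens, 10 laminin chains and 4 linkers of the basement membrane.

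The series covers 4 groups and 14 samples. Small intestinal crypts (3 samples) and villi (3 samples) came from C57BL/6 mice aged 12 weeks, each sample described as taken from a mouse. Mesenchyme, the future connective tissue and muscle of the wall, and endoderm, the future epithelium, were dissected from collagenase-treated intestine at embryonic day 12 (E12), with 4 pools a layer and no strain in the labels. Replicates 2, 3 and 4 of each layer, from pools of 10 to 12 fetuses, stand in a table of 6 arrays, and the pools from 35 fetuses stand with the adult arrays in a table of 8. No genetic change or treatment is named for any group. Levels are log2 signals, so a difference of 1 is a 2-fold difference, and levels were compared only for the same gene within 1 table. Signals under the 30th percentile of a table, 4.74 for the 6 arrays and 5.78 for the 8 arrays, are called near background.

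Fibrillar collagens assemble into the fibers that give connective tissue its tensile strength, and fibril-associated and beaded filament collagens attach to them. The basement membrane is a thin sheet under every epithelium and around muscle and vessels. It is built from a laminin network, in which each molecule joins an alpha, a beta and a gamma chain, and a network of type IV collagen, with nidogens, perlecan and agrin tying the networks together. In the gut wall both the epithelium and the mesenchyme contribute to this sheet, which epithelial cells hold through integrins and dystroglycan.

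Of the 50 genes, 41 exceeded the 30th percentile in at least 3 of the 6 E12 arrays and were tested. Mesenchyme had the higher level for 31 of the 41 and endoderm for 3, namely Lama1, Lama5 and Lamb3, with a limma adjusted p under 0.05. Over all 9441 genes tested, 53.1% were called, 25.4% higher in mesenchyme and 27.7% higher in endoderm. The median difference, mesenchyme minus endoderm, was 2.03 over the 41 genes and -0.03 over all genes. A difference of at least 4-fold toward mesenchyme was called for 21 of the 41, against 5.11% of all genes, and of at least 16-fold for 11, against 1.21%. In whole-layer RNA, fewer cells of a type and less RNA per cell cannot be told apart.

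**Figure D1:**
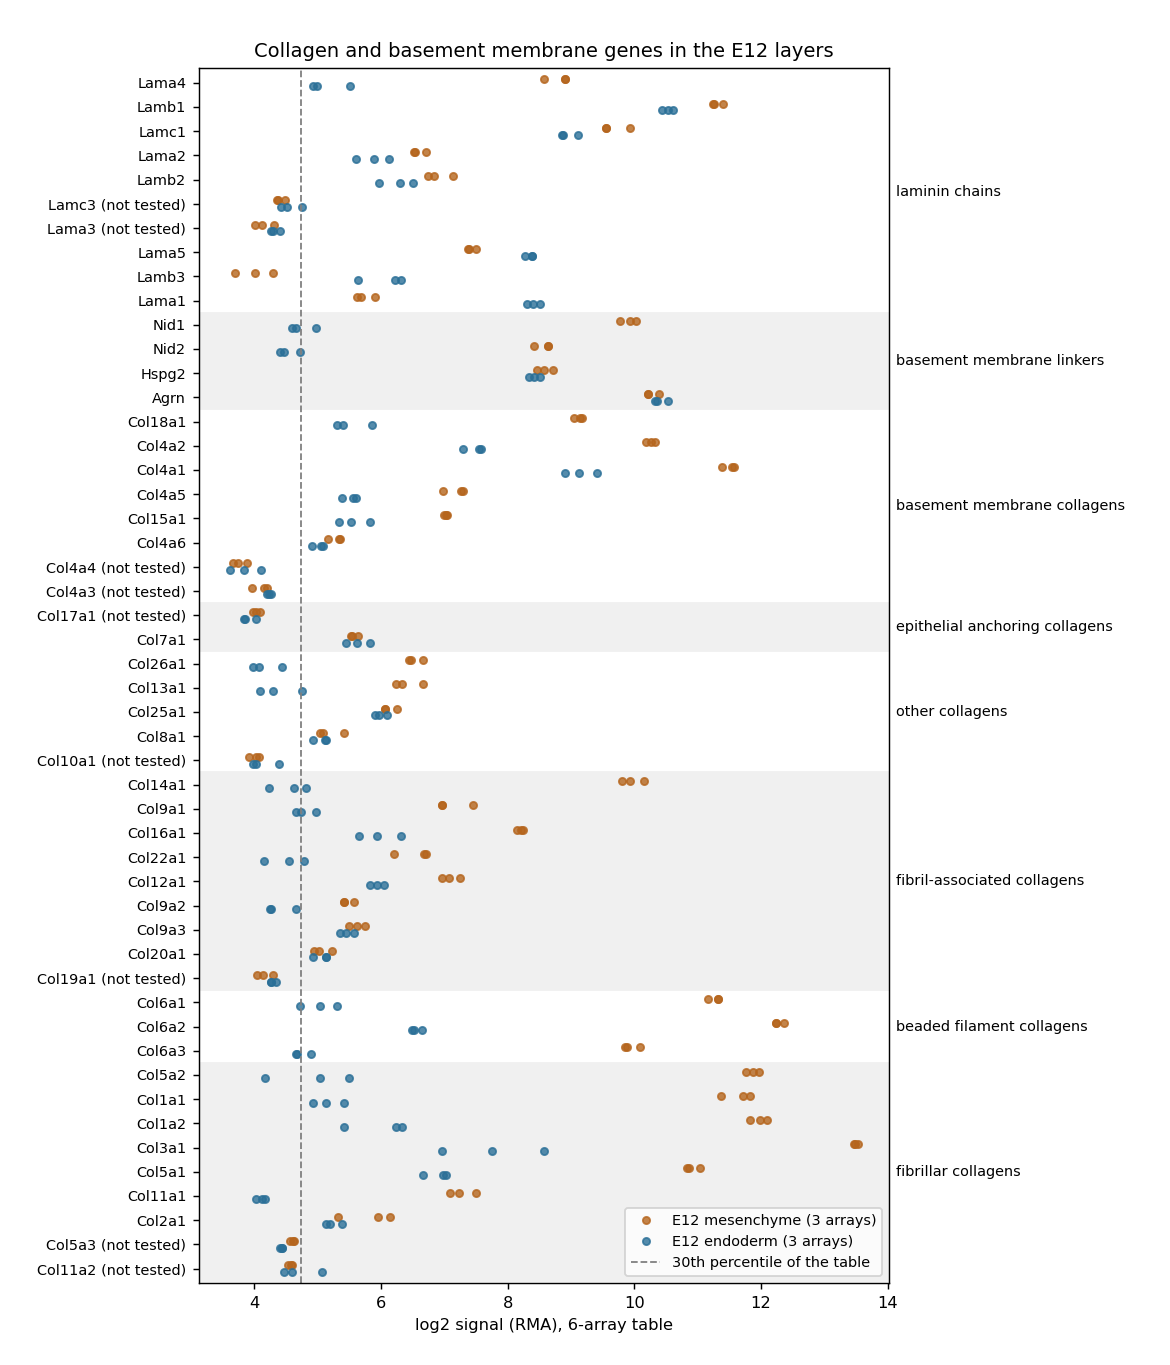
The log2 signal of each of the 50 genes in the 3 mesenchyme and 3 endoderm arrays of the 6-array table, by class, with the 30th percentile of the table as a dashed line. The mesenchyme points of Col1a1, Col1a2, Col3a1 and Col5a2 lie above 11, and the endoderm points are higher for Lama1, Lama5 and Lamb3.

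All 7 tested fibrillar collagens were higher in mesenchyme, against 25.4% of all genes. Their differences ran from 0.57 to 6.97, with a median of 5.73. Values of the 3 arrays of a layer are given in the order of replicates 2, 3 and 4. Col5a2, a chain of the type V collagen that starts fibrils, read 11.97, 11.76 and 11.87 in mesenchyme and 4.17, 5.03 and 5.50 in endoderm. This was the widest gap of the set, 6.97 ± 0.29 (SE), or 125-fold, with an adjusted p of 2.5e-07. Col1a1, the main chain of type I collagen, read 11.82, 11.71 and 11.37 in mesenchyme and 4.92, 5.13 and 5.42 in endoderm. Its difference was 6.48 ± 0.16 (SE; adjusted p 2.1e-08). Its partner chain Col1a2 read 12.10, 11.99 and 11.82 against 5.42, 6.23 and 6.33, a difference of 5.98 ± 0.23 (SE; adjusted p 1.5e-07). None of these layers overlapped.

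Col3a1 encodes the only chain of type III collagen, the fibrillar collagen of distensible organs. It read 13.53, 13.47 and 13.49 in mesenchyme and 6.96, 7.75 and 8.58 in endoderm, a 53.2-fold difference (5.73 ± 0.34, SE; adjusted p 2.1e-06). The endoderm arrays were spread over 1.62 units while the mesenchyme arrays lay within 0.06. For Col1a1, Col1a2, Col3a1 and Col5a2 alike, endoderm replicate 2 was the lowest and replicate 4 the highest of the layer. Col6a2 and Col6a3 took this order too, but Col4a1, Col5a1, Col6a1, Col14a1 and Col18a1 had replicate 3 as the lowest. The mean level of 11 smooth muscle markers rose from endoderm replicate 2 to replicate 4, at 5.42, 5.60 and 5.76. Single muscle markers differed, with Acta2 and Mylk rising from replicate 2 to replicate 4 and Lmod1 and Synpo2 falling. The mean of 12 fibroblast and mesenchyme markers was 5.10, 5.01 and 5.20. The part of muscle or mesenchymal RNA in the collagen signal of endoderm was not tested.

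Col5a1, the second chain of type V collagen, differed by 4.02 ± 0.12 (SE), and Col11a1, a chain of the type XI collagen that resembles type V, by 3.17 ± 0.12 (SE). Col11a1 was near background in endoderm, where its mean was 4.10 ± 0.08 (SD, n = 3). Col2a1, the cartilage collagen, read 6.15, 5.95 and 5.32 in mesenchyme and 5.13, 5.20 and 5.38 in endoderm. Its layers overlapped, its difference of 0.57 ± 0.20 (SE) had an adjusted p of 0.042, and 8 of 13 alternatives ended the call, among them the replicate number as a block (adjusted p 0.057) and leaving out mesenchyme replicate 2 (0.40, adjusted p 0.14). Col5a3 and Col11a2 were near background in both layers and were not tested.

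The 3 type VI genes, whose chains form beaded filaments around cells, were all higher in mesenchyme, against 25.4% of all genes. Col6a1 read 11.32, 11.32 and 11.16 in mesenchyme and 5.04, 4.72 and 5.31 in endoderm (difference 6.24 ± 0.15, SE; adjusted p 1.8e-08). Col6a2 differed by 5.73 ± 0.09 (SE) and Col6a3 by 5.20 ± 0.11 (SE), which are 53.2-fold and 36.8-fold. Each of the 3 had no overlap between layers.

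Among fibril-associated collagens, which coat the surface of fibrils, 6 of 8 tested were higher in mesenchyme, against 25.4% of all genes. Col14a1, which binds the surface of type I fibrils, led at 10.15, 9.80 and 9.94 in mesenchyme against 4.82, 4.23 and 4.63 in endoderm, where it was near background. Its difference was 5.40 ± 0.16 (SE; adjusted p 4.4e-08), and 3.42 by its other probe set. Col16a1 differed by 2.24 ± 0.16 (SE) and Col12a1 by 1.15 ± 0.11 (SE). For Col9a1 and Col22a1 the size depended on the probe set, with 2.34 and 0.77 for the 2 probe sets of Col9a1 and 2.04 and 0.56 for those of Col22a1. Col9a2 was 1.09 ± 0.13 (SE) higher, while Col9a3 (0.16) and Col20a1 (0.00) were not called. Col19a1 was not tested.

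Of the other collagens, 2 of 4 tested were called, a share near the 53.1% of all genes. Col26a1 read 6.48, 6.67 and 6.45 in mesenchyme and 4.43, 4.07 and 3.98 in endoderm (2.37 ± 0.13, SE; adjusted p 1.5e-06). The membrane-spanning Col13a1 differed by 2.03 ± 0.18 (SE). Col8a1 (0.12) and Col25a1 (0.14) were not called, nor was Col7a1 (-0.06), the collagen of the anchoring fibrils that fasten skin epithelium. Col17a1, a collagen of epithelial hemidesmosomes, and Col10a1, the collagen of growth plate cartilage, were near background in both layers.

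In all, 6 pairs of members are neighbors in the genome, and no test of neighbors was made. Col3a1 and Col5a2 on chromosome 1, Col6a2 and Col6a1 on chromosome 10, and Col4a1 and Col4a2 on chromosome 8 were all higher in mesenchyme. Col4a6 and Col4a5 on chromosome X were as well, although the Col4a6 call was fragile, as given with its values. On chromosome 1, Col9a1 was higher in mesenchyme while its neighbor Col19a1 was near background in both layers, as were the neighbors Col4a4 and Col4a3. In the RefSeq table of mouse promoters (build GRCm38.p6) 35 of the 50 genes had a window, running from 250 bases before to 50 after a start. Motifs were counted in the first 250 bases of each window, with 1 window kept for a member and all 32851 kept in the total. The CCAAT box (CCAAT or, on the other strand, ATTGG) was in 37.1% of the 35 windows and in 33.8% of all 32851. The TATA motif (TATAAA or TTTATA) was in 14.3% and 12.4%, and the GC box (GGGCGG or CCGCCC) in 57.1% and 32.7%. The stretches below, each ending where the annotated gene begins, are shown for 3 genes with gaps above 16-fold between the layers, with these motifs in capitals, 5′ to 3′ on the strand of the gene. Col1a2 is at chr6:4505368-4505617 (+), Col3a1 at chr1:45311288-45311537 (+) and Col6a1 at chr10:76726045-76726294 (-).
Col1a2: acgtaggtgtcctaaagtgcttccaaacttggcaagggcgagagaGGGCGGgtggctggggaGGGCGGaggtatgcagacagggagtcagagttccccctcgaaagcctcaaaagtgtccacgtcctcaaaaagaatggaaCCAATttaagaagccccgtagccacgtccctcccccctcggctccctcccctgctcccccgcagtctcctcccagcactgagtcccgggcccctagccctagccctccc
Col3a1: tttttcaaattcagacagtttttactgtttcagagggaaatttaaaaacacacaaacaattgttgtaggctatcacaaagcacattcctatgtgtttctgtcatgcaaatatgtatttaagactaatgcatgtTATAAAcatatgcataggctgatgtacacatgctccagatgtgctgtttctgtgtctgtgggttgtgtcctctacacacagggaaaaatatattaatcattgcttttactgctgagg
Col6a1: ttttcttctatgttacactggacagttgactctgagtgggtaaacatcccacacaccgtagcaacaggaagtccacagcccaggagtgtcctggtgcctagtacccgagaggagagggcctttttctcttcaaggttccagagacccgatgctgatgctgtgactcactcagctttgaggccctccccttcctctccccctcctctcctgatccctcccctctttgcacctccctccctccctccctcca
The Col1a2 stretch held 1 CCAAT box and 2 GC boxes, that of Col3a1 held 1 TATA motif, and that of Col6a1 held none of the 3 motifs, although the levels of all 3 genes differed between the layers in the same direction. A match describes the letters alone.

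All 6 tested basement membrane collagens were called higher in mesenchyme, against 25.4% of all genes. Their differences ran from 0.27 to 3.60, with a median of 2.01. Col4a1, which with Col4a2 makes the type IV collagen of nearly all basement membranes, read 11.57, 11.54 and 11.38 in mesenchyme and 9.41, 8.91 and 9.12 in endoderm. That is a 5.10-fold difference (2.35 ± 0.13, SE; adjusted p 1.7e-06), and endoderm stayed well above the 30th percentile. Col4a2 read 10.33, 10.27 and 10.19 against 7.58, 7.29 and 7.55, a 6.92-fold difference (2.79 ± 0.11, SE; adjusted p 1.5e-07). Neither gene overlapped between layers.

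The other type IV chains form alternative networks. Col4a5 read 6.98, 7.26 and 7.30 in mesenchyme and 5.56, 5.61 and 5.38 in endoderm (1.66 ± 0.12, SE; adjusted p 5.9e-06), with 0.71 by its other probe set. Col4a6 read 5.33, 5.16 and 5.36 against 5.05, 5.08 and 4.91, and its difference of 0.27 ± 0.10 (SE) had an adjusted p of 0.044. The Col4a6 call was lost under 8 of 13 alternatives, with an adjusted p of 0.069 when the replicate number was a block and 0.16 without endoderm replicate 4. Col4a3 and Col4a4, which are neighbors on chromosome 1, were near background in both layers.

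Col18a1 and Col15a1 encode the proteoglycan collagens that sit at the edge of the basement membrane. Col18a1 read 9.18, 9.15 and 9.05 in mesenchyme and 5.86, 5.31 and 5.40 in endoderm, a 12.2-fold difference (3.60 ± 0.15, SE; adjusted p 2.2e-07). Col15a1 differed by 1.46 ± 0.13 (SE). In both genes every mesenchyme array was above every endoderm array.

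The linkers split. Nid1, the nidogen that bridges laminin to type IV collagen, read 10.03, 9.78 and 9.93 in mesenchyme and 4.97, 4.59 and 4.65 in endoderm (5.18 ± 0.12, SE; adjusted p 1.9e-08), with 2.94 by its other probe set. Nid2, its relative, read 8.64, 8.64 and 8.42 against 4.41, 4.47 and 4.72 (4.03 ± 0.11, SE; adjusted p 3.7e-08). By these probe sets both nidogens had an endoderm mean near background, while the other probe set of Nid1 averaged 5.22 there. Hspg2, which encodes perlecan, read 8.71, 8.46 and 8.57 in mesenchyme and 8.51, 8.33 and 8.42 in endoderm, overlapping ranges with a difference of 0.16 ± 0.10 (SE; adjusted p 0.22). Agrn, which encodes agrin, read 10.39, 10.21 and 10.21 against 10.53, 10.32 and 10.36, also overlapping, with a difference of -0.13 ± 0.10 (SE; adjusted p 0.30). All 15 alternatives left these last 2 genes uncalled.

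Laminin chains were the class with calls in both directions, 5 of 8 tested toward mesenchyme and 3 toward endoderm, and no chain overlapped between layers. Over all genes, 25.4% were called higher in mesenchyme and 27.7% higher in endoderm. The arrays of the layers did not overlap for 62.0% of all genes, and for 32.9% with endoderm the higher. The median of the 8 differences was 0.68.

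Lama1, the alpha chain of the laminin of early embryos, had the widest gap toward endoderm. It read 5.91, 5.62 and 5.69 in mesenchyme and 8.51, 8.30 and 8.40 in endoderm, a 6.33-fold difference (-2.66 ± 0.11, SE; adjusted p 2.2e-07). Lamb3, a beta chain of epithelial hemidesmosome laminin, read 4.30, 4.01 and 3.69 against 6.32, 6.22 and 5.64 (-2.06 ± 0.21, SE; adjusted p 6.2e-05) and was near background in mesenchyme. Lama5, the alpha chain of the main adult epithelial laminin, read 7.39, 7.50 and 7.37 against 8.38, 8.38 and 8.28 (-0.93 ± 0.09, SE; adjusted p 3.4e-05), and its second probe set gave -0.80.

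The chain with the widest gap toward mesenchyme was Lama4, the alpha chain of vessel and muscle laminins, at 8.91, 8.90 and 8.58 against 5.51, 4.99 and 4.93. Its difference was 3.65 ± 0.17 (SE; adjusted p 4.7e-07), with 1.94 by its other probe set. The remaining 4 chains differed by less than 2-fold by the probe sets tested. Lamb1, the common beta chain, read 11.40, 11.26 and 11.25 in mesenchyme and 10.61, 10.43 and 10.54 in endoderm (0.78 ± 0.09, SE; adjusted p 0.00016), with 1.38 by another of its 3 probe sets. Lamc1, the common gamma chain, read 9.93, 9.56 and 9.55 against 9.11, 8.87 and 8.86 (0.73 ± 0.13, SE; adjusted p 0.0017), with 0.39 by its other probe set. The 2 chains shared by most laminins were thus well above background in both layers. Lama2, the muscle alpha chain, read 6.71, 6.53 and 6.52 against 6.12, 5.89 and 5.60 (0.72 ± 0.14, SE; adjusted p 0.0026). Lamb2, the beta chain of nerve, muscle and kidney laminins, read 6.74, 7.13 and 6.83 against 6.51, 6.30 and 5.97 (0.64 ± 0.16, SE; adjusted p 0.0094). Lama3 and Lamc3 were near background in both layers and were not tested.

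**Figure D2:**
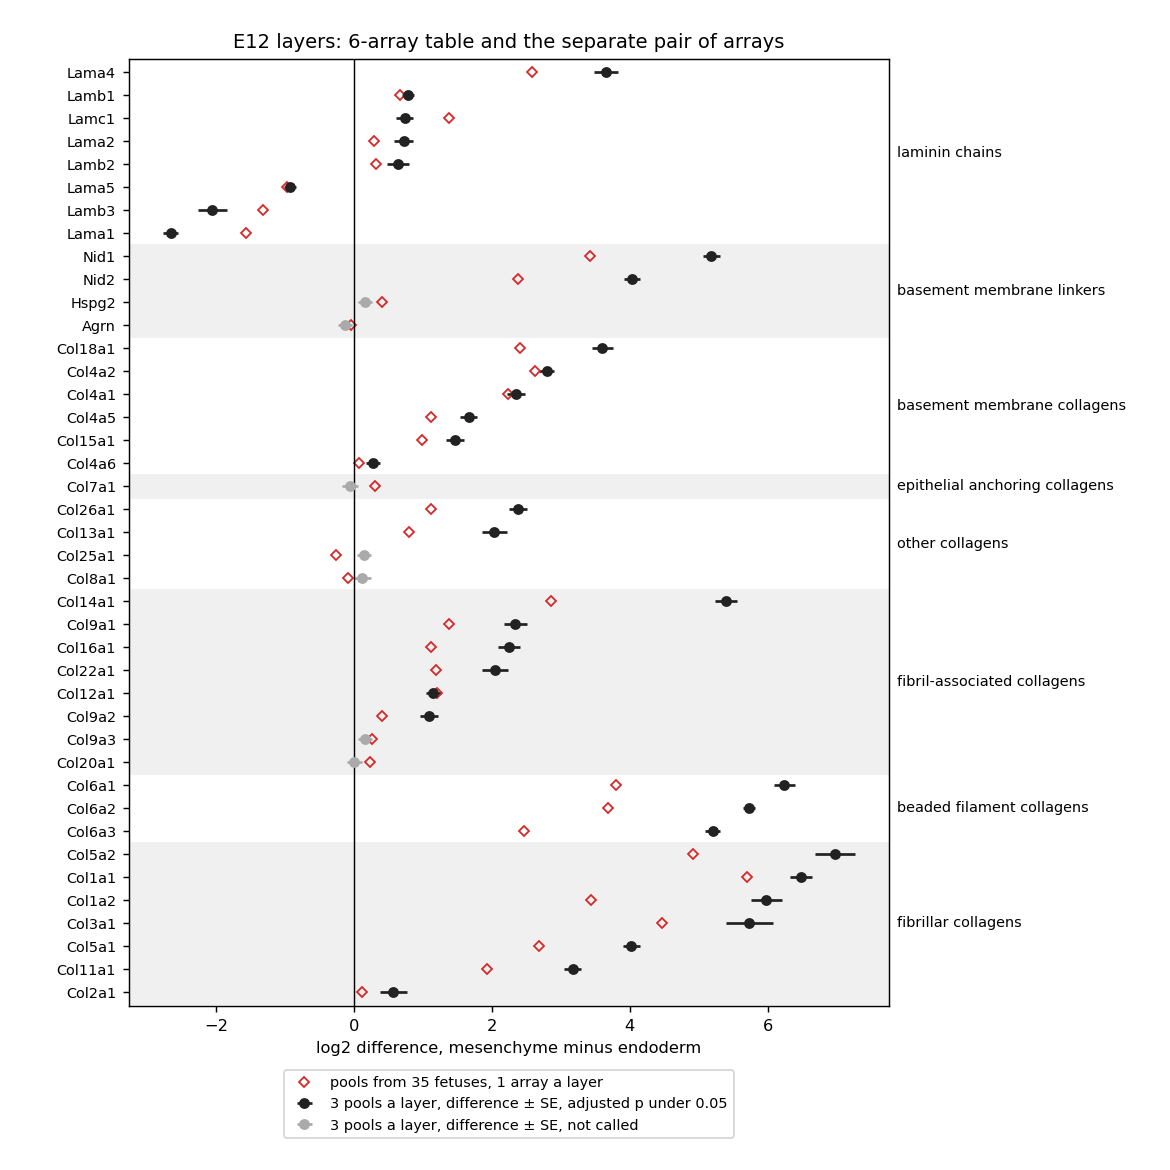
The log2 difference between mesenchyme and endoderm for the 41 tested genes, as the fit's estimate ± SE from 3 pools a layer (circles, black where the limma adjusted p was under 0.05) and as the single difference of the arrays from 35 fetuses (diamonds). All 34 called genes have the same direction in both, as have 94.3% of all called genes, and Lama1, Lamb3 and Lama5 lie left of 0.

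The pools from 35 fetuses, with 1 array a layer on another array platform, gave the layer difference again without a replicate. All 34 called genes had the same direction there, and so did 94.3% of all 5009 called genes, a share near that of the set. The smallest of these differences were 0.07 for Col4a6 and 0.11 for Col2a1. By its other probe set Col4a6 went the other way, with 5.55 in mesenchyme and 5.70 in endoderm. Differences of at least 1 toward mesenchyme were present in 23 of the 41 genes, against 8.12% of all genes tested, and toward endoderm in 2, Lama1 (-1.57) and Lamb3 (-1.32), against 7.81%. Col1a1 stood at 11.48 in mesenchyme and 5.78 in endoderm, and Col3a1 at 11.97 and 7.51. Among called genes of the set, the sizes were smaller in this pair except for Col12a1 (1.20), Lama5 (-0.97) and Lamc1 (1.38). Col5a2 differed by 4.91, Col6a1 by 3.80 and Nid1 by 3.42. Hspg2 (9.88 and 9.48) and Agrn (9.98 and 10.03) again lay close together. Within the 6 arrays, 19 called genes had several probe sets, and in all 19 every probe set had the direction of the call.

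Genes that act on collagens and basement membranes were counted from lists of 4 kinds. In collagen synthesis and cross-linking, 18 of 25 tested genes were higher in mesenchyme, against 25.4% of all genes, and Ctage5, which helps load procollagen into carriers, was lower. Pcolce, which speeds removal of the procollagen tail, had a mean of 9.63 ± 0.07 (SD, n = 3) in mesenchyme and 4.43 ± 0.44 in endoderm, near background (adjusted p 1.5e-07). Sparc, a collagen-binding matrix protein, had means of 11.87 ± 0.09 and 8.23 ± 0.15 (SD, n = 3), a 12.5-fold difference (adjusted p 3.8e-08). Ctage5 differed by -1.06 ± 0.11 (SE; adjusted p 6e-05). Pcolce differed by 3.25 rather than 5.20 by the probe set brightest in endoderm.

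Of matrix proteases and their inhibitors, 12 of 14 tested were higher in mesenchyme and 0 in endoderm (limma, with 0 also at an unadjusted p under 0.05). Over all genes, the shares were 25.4% and 27.7%. Mmp2, a gelatinase that cuts type IV collagen and denatured collagens, had a mean of 10.46 ± 0.05 (SD, n = 3) in mesenchyme and 4.97 ± 0.18 in endoderm, 45.0-fold apart. Reck, a membrane inhibitor of such proteases, differed 7.94-fold. Of the proteins associated with basement membranes, 7 of 11 tested were higher in mesenchyme, against 25.4% of all genes. Ntn1, a netrin related to laminin chains, differed by 5.28 ± 0.10 (SE) but by 0.77 by another probe set, and Smoc2, a calcium-binding matrix protein, by 5.15 ± 0.12 (SE), both near background in endoderm. Tinag, a basement membrane antigen first known from kidney tubules, was higher in endoderm (6.73 ± 0.24, SD, n = 3), with a mean near background in mesenchyme.

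The receptors went both ways, 4 of 15 tested toward mesenchyme and 6 toward endoderm, with a median difference of -0.07. Against 25.4% and 27.7% of all genes, the share toward mesenchyme was near the background. Mrc2, which takes up collagen fragments, averaged 7.55 in mesenchyme and 4.52 in endoderm, near background, and differed by 0.72 by its other probe set. Ddr2, a kinase receptor for fibrillar collagen, was 7.03-fold higher there (difference 2.81 ± 0.15, SE), and Itgb1, the beta subunit shared by collagen and laminin integrins, was 2.54-fold higher. Sdc4, a heparan sulfate co-receptor, differed by -2.48 ± 0.32 (SE), or -1.42 without probe sets whose names end in _a_at, _s_at or _x_at. Itga6, the integrin alpha chain for laminin, differed by -1.52 ± 0.09 (SE; adjusted p 2.3e-06). Its hemidesmosome partner Itgb4 (-0.48), the laminin receptor dystroglycan Dag1 (-0.45), the integrin partner Cd151 (-0.95) and Sdc1 (-0.52) were the other receptors higher in endoderm.

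The layers carried the markers their names call for. All 12 epithelial markers were higher in endoderm, by a median of 4.84 on the log2 scale (-4.84 as mesenchyme minus endoderm). The mesenchyme layer also held the other cell types of the wall. Higher there were 10 of 10 tested fibroblast and mesenchyme markers, 11 of 11 of smooth muscle and 11 of 11 of endothelium. So were 8 of 8 of enteric neural crest and 5 of 5 of pericytes and Schwann cells. For mesothelium it was 2 of 2 tested and for leukocytes 4 of 6 tested. Too dim to be tested were Msln and Gpm6a of mesothelium and Ptprc, Cd3g and Itgam of leukocytes. So were Thy1 and Dpt among fibroblast and mesenchyme markers. Over all genes, 25.4% were higher in mesenchyme and 27.7% in endoderm. The smooth muscle actin Actg2 differed 118-fold, the endothelial receptor Kdr 13.9-fold and the mesothelial Upk3b 8.19-fold. Endoderm was near background for the fibroblast proteoglycan Lum (mean 10.94 in mesenchyme and 4.60 in endoderm), the neural crest lipid carrier Fabp7 (8.95 and 3.95), the pericyte gene Rgs5 (9.73 and 4.09) and the macrophage receptor Csf1r (7.58 and 4.72). By the probe set brightest in endoderm the difference was 3.32 rather than 5.64 for Rgs5 and 0.51 rather than 2.86 for Csf1r. Epithelial markers averaged 5.72 to 6.19 in the mesenchyme arrays, where Cldn7, a tight junction protein, had a mean of 5.77 against 11.99 in endoderm. The part of each cell type in the collagen levels was not tested.

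In the adult arrays, 35 of the 50 genes passed the filter on low signal. Villi had the higher level for 2 of the 35, Lama3 and Agrn, against 16.9% of all 9961 genes tested, and of these 2 Lama3 was at least 4-fold apart, against 3.31%. Called in either direction were 31.9% of all genes. Crypts had the higher level for 0 of 35 by limma, against 15.0%, and for 1 of 35, Lama5, at an unadjusted p under 0.05. The median difference, villus minus crypt, was -0.05 over the 35 genes and 0.00 over all genes. The arrays of crypt and villus did not overlap for 10 of the 35, against 47.8% of all genes tested.

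**Figure D3:**
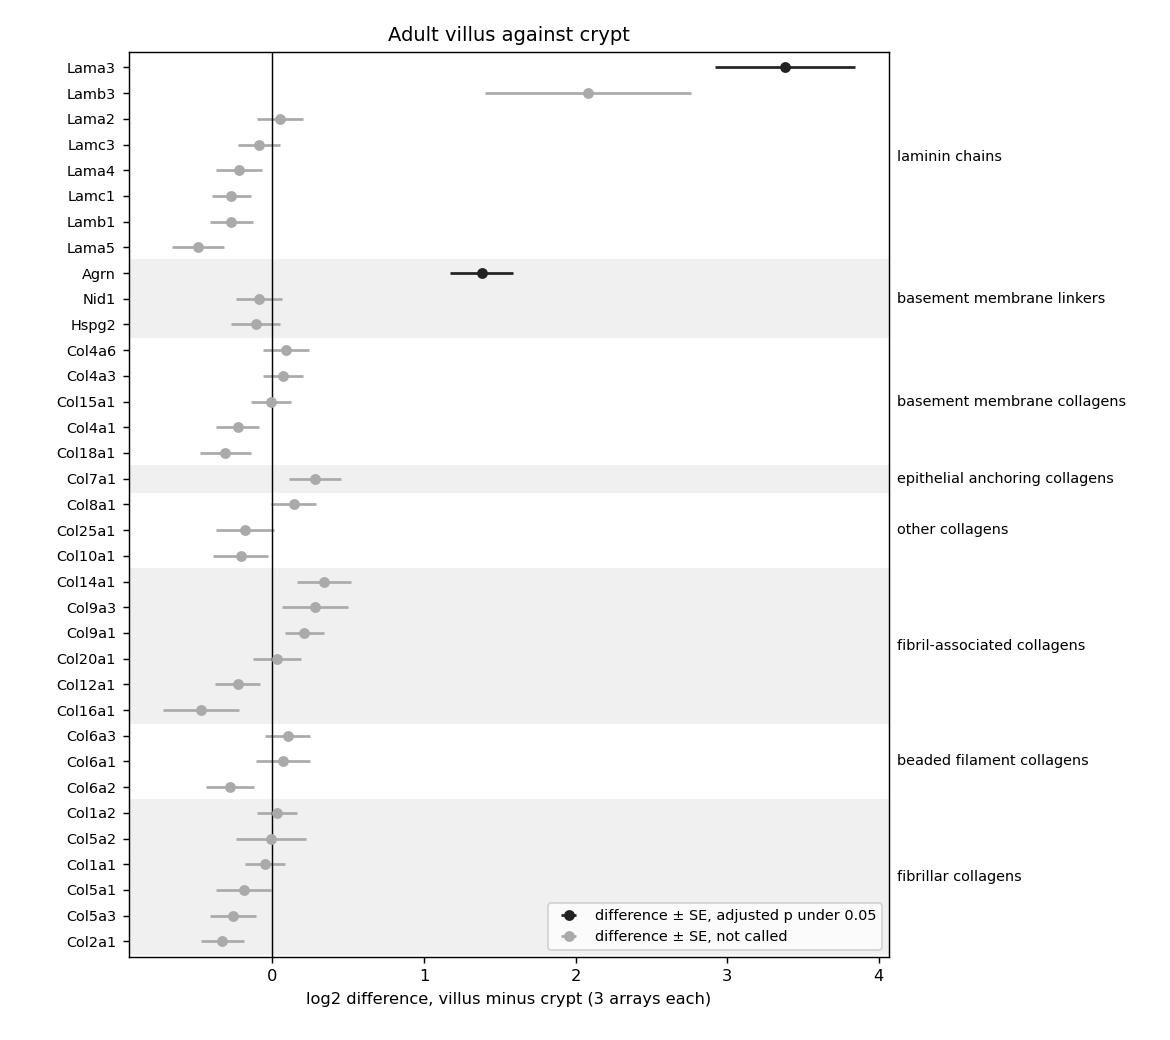
The log2 difference between villus and crypt (± SE, 3 arrays each) for the 35 tested genes by class, black where the limma adjusted p was under 0.05. Lama3 at 3.38 and Agrn at 1.38 are the called genes, Lamb3 at 2.08 has the widest error, and the rest lie between -0.49 and 0.34.

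Adult values are given in the order of crypt samples K12, K21 and K41 and villus samples V12, V41 and V275, named as in the titles. Lama3 encodes the alpha chain found with Lamb3 in the laminin of hemidesmosomes. It read 5.86, 6.00 and 5.80 in crypts, just above the 30th percentile, and 9.21, 10.34 and 8.24 in villi. The difference was 3.38 ± 0.46 (SE), or 10.4-fold, with an adjusted p of 0.0016. Its villus arrays spread over 2.10 units, and the lowest of them was still 2.24 above the highest crypt array.

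Agrn read 8.67, 8.63 and 8.48 in crypts and 10.06, 10.33 and 9.54 in villi, a 2.60-fold difference (1.38 ± 0.21, SE; adjusted p 0.0027) with no overlap. Lamb3 read 7.05, 7.39 and 6.87 in crypts and 9.16, 10.79 and 7.62 in villi. Its groups did not overlap either, but its difference of 2.08 ± 0.68 (SE) had an adjusted p of 0.052. It passed the threshold in 5 of 13 alternatives, among them without villus V41 (1.29, adjusted p 0.044) and without villus V275 (2.87, adjusted p 0.0055). For Lama3, Agrn and Lamb3 alike, villus V41 was the highest and villus V275 the lowest villus array.

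Lama5 read 8.49, 8.67 and 8.31 in crypts and 7.76, 8.20 and 8.03 in villi (-0.49 ± 0.17, SE; adjusted p 0.063). It was called in 3 of 14 alternatives, with adjusted p 0.042 after quantile normalization, 0.040 when its probe sets were reduced to their median and 0.042 when villus V41 was left out. Lamb1 read 6.34, 6.13 and 6.16 in crypts and 5.95, 6.05 and 5.84 in villi (-0.27 ± 0.14, SE; adjusted p 0.18). By the probe set of the E12 fit, Lamb1 averaged 4.25 in crypts and 3.86 in villi, near background. Lamc1 read 6.25, 6.19 and 6.09 against 5.95, 5.83 and 5.92 (-0.27 ± 0.13, SE; adjusted p 0.15), and Lama4 6.54, 6.21 and 6.10 against 6.09, 6.05 and 6.04 (-0.22 ± 0.15, SE; adjusted p 0.32). In these 4 chains every crypt array was above every villus array, and Col2a1 and Col5a3 behaved likewise, which makes 6 of 35 genes against 23.5% of all genes. Lama2, at 6.69, 6.74 and 6.62 in crypts and 6.51, 6.78 and 6.90 in villi, and Lamc3 (-0.09) overlapped. Lama1 and Lamb2 were near background in all 6 adult arrays and were not tested.

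None of the tested collagens was called between villus and crypt. The fibrillar genes ranged from -0.33 to 0.03. Col1a1 read 6.53, 6.62 and 6.63 in crypts and 6.47, 6.49 and 6.68 in villi (-0.05 ± 0.13, SE), and Col1a2 read 7.48, 7.29 and 7.32 against 7.37, 7.43 and 7.39 (0.03 ± 0.13, SE). The groups overlapped in both. By the probe set of the E12 fit, Col1a1 averaged 4.99 in crypts and 4.90 in villi, near background. Col3a1 was near background in all 6 adult arrays, at 4.10 to 4.52, and was not tested.

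Of the basement membrane collagens, Col4a1 read 7.82, 7.96 and 7.67 in crypts and 7.62, 7.46 and 7.68 in villi (-0.23 ± 0.14, SE; adjusted p 0.26). By the probe set of the E12 fit, Col4a1 averaged 4.54 in crypts and 4.64 in villi, near background. Col18a1 read 7.87, 7.68 and 7.35 against 7.40, 7.31 and 7.27 (-0.31 ± 0.17, SE; adjusted p 0.20), and Col4a6 7.22, 6.95 and 6.84 against 7.07, 7.13 and 7.07 (0.09 ± 0.15, SE). All overlapped. Col4a2, Col4a4 and Col4a5 were near background. Among linkers, Hspg2 read 9.90, 9.77 and 9.41 in crypts and 9.61, 9.53 and 9.60 in villi (-0.11 ± 0.16, SE), and Nid1 6.02, 5.80 and 5.74 against 5.63, 5.73 and 5.93 (-0.09 ± 0.15, SE). Nid2 was near background, as was Nid1 by the probe set of the E12 fit (4.15 in crypts and 4.19 in villi). The fibril-associated, beaded filament, anchoring and other collagens that were tested ranged from -0.47 (Col16a1) to 0.34 (Col14a1).

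**Figure D4:**
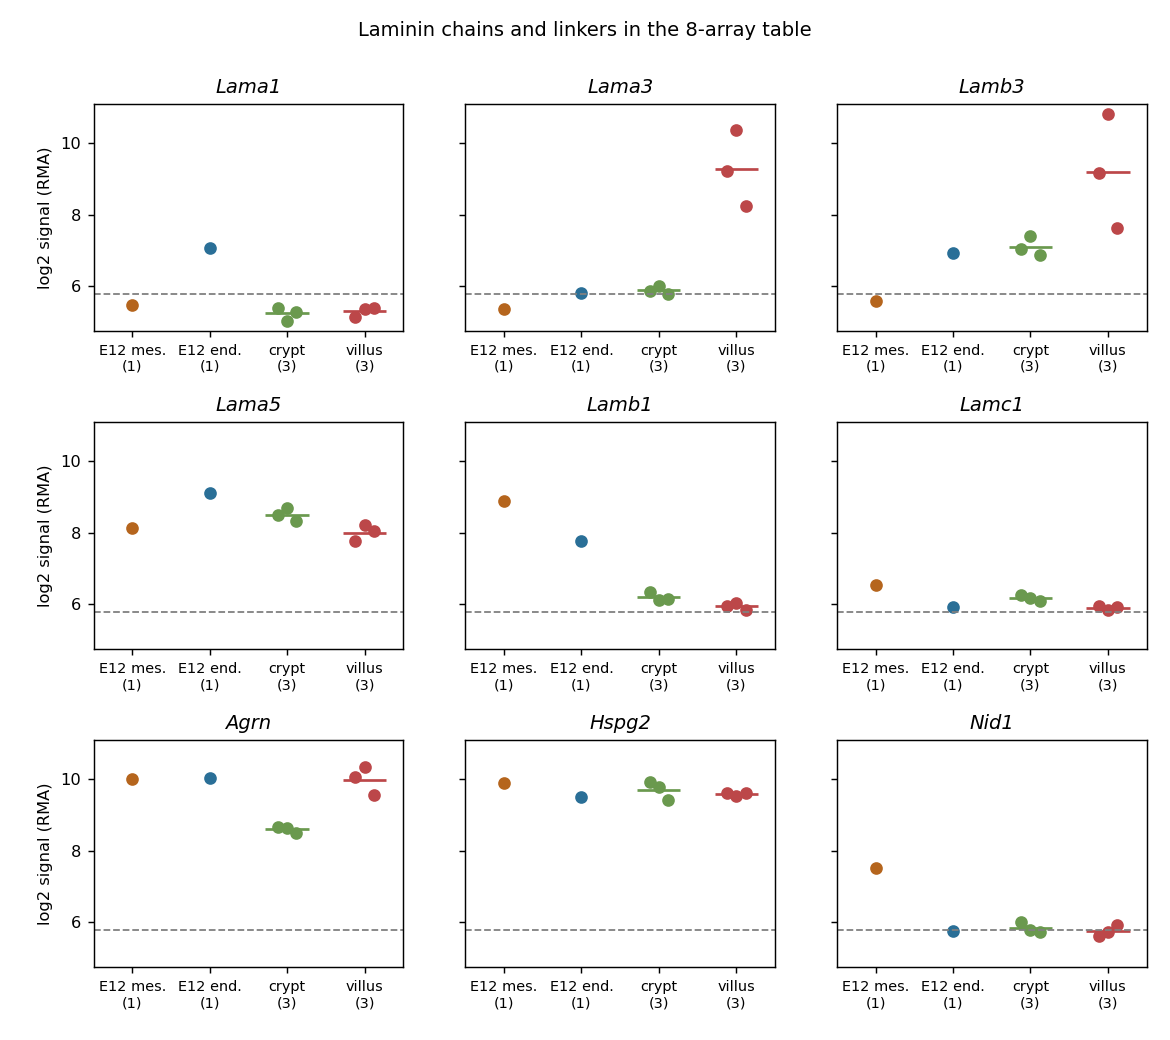
The log2 signals of 9 basement membrane genes in the 8-array table, with 1 array for each E12 layer and 3 each for crypt and villus, group means as bars and the 30th percentile of the table as a dashed line. Lama1 is above that line only in E12 endoderm, Lama3 is far above it only in villi, and Agrn is lower in crypts than in the other arrays.

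The adult arrays were set beside the E12 arrays of the same table, for which there is no replicate. Of the 41 genes tested at E12, 20 had all 6 adult arrays at least 1 unit below the E12 mesenchyme array, against 12.7% of all genes, and 5 had them at least 1 unit below the E12 endoderm array, against 10.3%, a share near the background. The 5 were Col3a1, Col4a1, Lama1, Lamb1 and Lamc1. These counts use the probe sets of the E12 fit, and by the probe sets of the adult fit Col4a1 (8.61 in E12 endoderm against 7.46 to 7.96) and Lamc1 (5.94 against 5.83 to 6.25) were not 1 unit below endoderm. Nor were Lamc1 (6.53 in E12 mesenchyme), Col9a1 (7.32 against 6.86 to 7.22) and Col4a5 (5.50 against 4.64 to 4.77) 1 unit below mesenchyme by those probe sets. None of the 41 had all adult arrays at least 1 unit above both E12 arrays, against 1.89%. Among 41 genes so small a share cannot be told from none. Members near background at E12 were not among the 41, so no conclusion is drawn from this count. Col3a1 was at 11.97 in mesenchyme, 7.51 in endoderm and 4.10 to 4.52 in the adult arrays, and Col5a2 at 11.97, 7.06 and 6.37 to 7.17. These comparisons set a whole embryonic layer beside isolated adult crypts and villi, and age and cell makeup cannot be told apart.

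The epithelial alpha chains Lama1 and Lama5 were highest in E12 endoderm in that table, and Lama3 in villi. Lama1 was at 5.49 in E12 mesenchyme, 7.06 in E12 endoderm and 5.04 to 5.41 in the adult arrays. Lama3 was at 5.37 and 5.81 in the E12 layers, 5.80 to 6.00 in crypts and 8.24 to 10.34 in villi. Lama5 was at 8.12 and 9.09 in the E12 layers, 8.31 to 8.67 in crypts and 7.76 to 8.20 in villi, so that it was well above background in all 8 arrays. Lamb3 was at 5.60 in mesenchyme and 6.92 in endoderm, which is close to its 6.87 to 7.39 in crypts. Agrn was at 9.98 and 10.03 in the E12 layers, within the villus range of 9.54 to 10.33 and above the crypt range of 8.48 to 8.67.

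The promoter stretches of Lama5 and Agrn are shown, again with the CCAAT, TATA and GC box letters in capitals. Lama5 was 1 of the 3 laminin chains lower in E12 mesenchyme, and Agrn was the linker higher in villi. Lama5 is at chr2:180225905-180226109 (-) and Agrn at chr4:156197534-156197738 (-), and each stretch overlaps a predicted gene, Gm52542 and Gm46878.
Lama5: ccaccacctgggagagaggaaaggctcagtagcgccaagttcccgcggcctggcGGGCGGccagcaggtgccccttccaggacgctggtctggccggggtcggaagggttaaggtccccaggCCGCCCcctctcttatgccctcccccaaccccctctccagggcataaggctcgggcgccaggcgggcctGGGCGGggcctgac
Agrn: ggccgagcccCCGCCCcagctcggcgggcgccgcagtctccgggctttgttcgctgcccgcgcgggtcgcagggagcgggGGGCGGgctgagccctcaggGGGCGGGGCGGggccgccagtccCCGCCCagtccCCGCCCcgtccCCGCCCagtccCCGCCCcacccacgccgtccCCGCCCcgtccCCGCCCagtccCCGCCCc
The Lama5 stretch held 3 GC boxes and that of Agrn held 11, some of them overlapping, and neither held a CCAAT or TATA motif.

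The same lists were counted between villus and crypt. Of the receptors, 4 of 16 tested were higher in villi (Itga3, Itgb4, Ddr1 and Cd151) and 1 in crypts, against 16.9% and 15.0% of all genes. Itgb4, the hemidesmosome integrin that binds the laminin containing Lama3, had a mean of 9.43 ± 0.20 (SD, n = 3) in villi and 7.96 ± 0.24 in crypts (1.47 ± 0.18, SE; adjusted p 0.0011). Cd151, a tetraspanin partner of laminin integrins, differed by 1.11 ± 0.22 (SE; adjusted p 0.0083), or 0.74 after quantile normalization. Rpsa, a ribosomal protein also described as a laminin receptor, differed by -2.08 ± 0.47 (SE; adjusted p 0.013), by -1.01 as the median of its probe sets, and was not called without crypt K12 (adjusted p 0.060).

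In collagen synthesis and cross-linking, 4 of 24 tested genes were higher in villi and 3 in crypts, shares near the 16.9% and 15.0% of all genes. Sec23a, a coat protein of the carriers that leave the endoplasmic reticulum, differed by 2.95 ± 0.46 (SE; adjusted p 0.0030), with the crypt arrays at 6.18, 6.46 and 8.03 and the villus arrays at 9.42, 10.06 and 10.04. Ctage5 differed by 0.89 ± 0.27 (SE; adjusted p 0.041) and lost the call in 7 of 14 alternatives. Creb3l1, a transcription factor of secretory cells, differed by -1.05 ± 0.22 (SE; adjusted p 0.010). Crtap, a part of the prolyl 3-hydroxylase complex, differed by -0.62 ± 0.16 (SE; adjusted p 0.021) and was not called without villus V275 (adjusted p 0.070). Of the 7 calls in this list, 2 were left without crypt K12, K21 or K41 in turn and 3 without villus V275.

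Of the basement membrane associated proteins, 3 of 10 tested were higher in villi and 1 in crypts, against 16.9% and 15.0% of all genes. Smoc2 read 8.90, 9.27 and 8.73 in crypts and 6.22, 5.09 and 5.64 in villi (-3.31 ± 0.29, SE; adjusted p 0.00033), where its mean was near background. Vwa1, a protein that binds perlecan, differed by 2.09 ± 0.40 (SE; adjusted p 0.0068) and was near background in crypts. Fbln1, a fibulin, differed by 1.17 ± 0.38 (SE; adjusted p 0.050) and lost the call in 8 of 14 alternatives. The 4 calls of this list became 2 without crypt K21, crypt K41 or villus V12, and 1 without villus V275. Of matrix proteases and inhibitors, 0 of 16 were called by limma and 1, Mmp14 (-0.53, adjusted p 0.085), had an unadjusted p under 0.05.

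**Figure D5:**
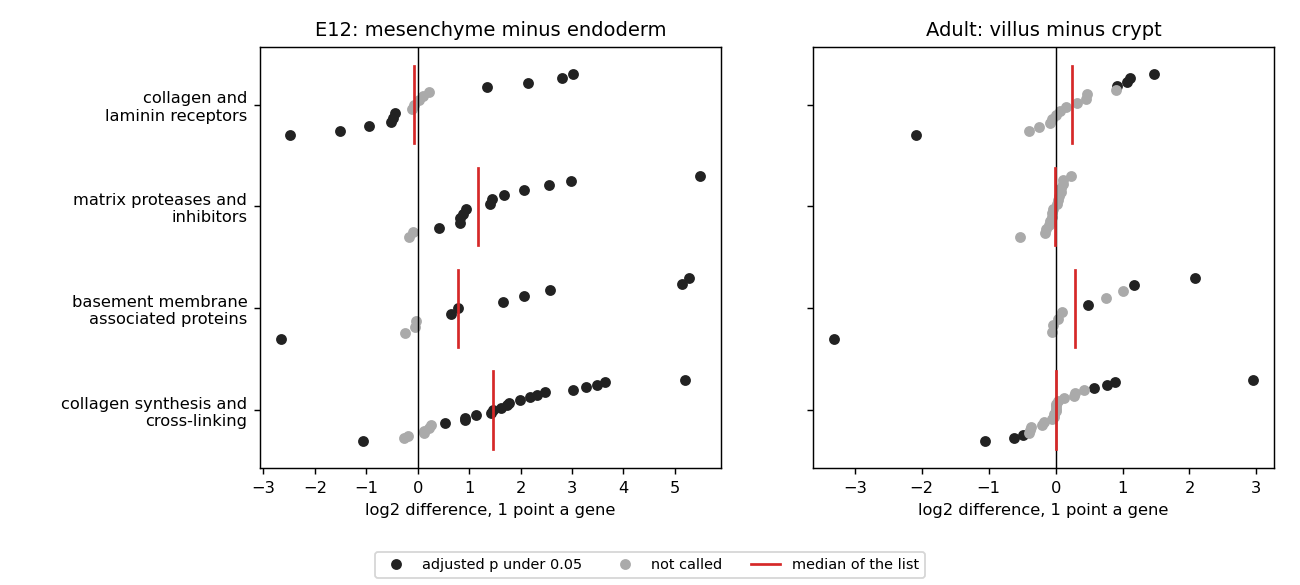
The log2 difference of each tested gene of 4 partner lists, 1 point a gene, between the E12 layers (left) and between villus and crypt (right), black where the limma adjusted p was under 0.05, with the median of each list in red. The E12 medians are 0.78 to 1.47 for synthesis, proteases and associated proteins and -0.07 for receptors, and the adult medians lie between -0.01 and 0.29.

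In the adult arrays, 5 of 12 epithelial markers were higher in villi, among them the brush border protein Vil1 (1.91 ± 0.26, SE; adjusted p 0.0017), and 1 was higher in crypts, Foxa2 (-0.86, adjusted p 0.021), whose call was lost in 5 of 14 alternatives, among them without crypt K12, crypt K21, villus V12 or villus V275. Over all genes, 16.9% were higher in villi and 15.0% in crypts. Array means of wall markers were 5.79 to 6.05 for fibroblast and mesenchyme, 6.48 to 6.69 for smooth muscle and 5.85 to 6.11 for endothelium. Single markers varied around these means. Mylk averaged 8.75 in crypts and 9.97 in villi, Acta2 7.57 and 7.98, and Dcn 7.30 and 7.29. Lum averaged 4.84 and 5.01, near background. Of fibroblast and mesenchyme markers, 2 of 7 tested were higher in villi, Vim and Thy1 (0.71, adjusted p 0.038, lost in 5 of 13 alternatives, among them without villus V275 at 0.49), and 5 of 12 did not pass the filter. Smooth muscle (0 of 9; largest Mylk, 1.22, adjusted p 0.063), endothelium (0 of 6; Esam, -0.42), enteric neural crest (0 of 5; Ret, 0.26), mesothelium (0 of 1; Upk3b, 0.34) and pericytes with Schwann cells (0 of 3; Rgs5, -0.17) had no call by limma, with 2, 2, 0, 0 and 0 at an unadjusted p under 0.05. Without crypt K41, Mylk (1.70, adjusted p 0.011) and Esam (adjusted p 0.030) were called, and Mylk was also called by the median of probe sets (1.31, adjusted p 0.039). Of leukocyte markers, 4 of 8 were higher in villi and Csf1r was lower (-0.57, adjusted p 0.041, lost in 8 of 14 alternatives). Cd3g, a T cell receptor chain, differed by 3.44 ± 0.29 (SE; adjusted p 0.0003) and averaged 8.24 in villi. The part of leukocyte or wall RNA in the levels of Lama3, Agrn and Lamb3 was not tested.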

How the data were processed

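RNA from adult crypts and villi and from E12 layers was measured on single-colour arrays. The authors deposited log2 signals, made with RMA per the submitters' processing notes; the RMA version is not given in the sources used here. RMA corrects background, normalizes across arrays and compresses differences at low signal. The 2 tables were normalized separately, so every test stayed within 1 table, apart from an alternative with all 8 E12 arrays and the table as a block. Arrays give no read depth, and their number limits the precision.

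Probe sets with 1 symbol in the platform's gene table were used (20380 of 22690; 691 had several symbols, 1555 none and 64 were controls). A gene was represented by the brightest of its probe sets across the arrays fitted, so the E12 and adult fits can use different probe sets, and the values of the pools from 35 fetuses follow the fit they stand beside. Genes had to exceed the table's 30th percentile in at least 3 arrays. The test was limma 3.58.1 under R 4.3.3; p-values were adjusted by Benjamini-Hochberg across every gene tested, and 0.05 was the threshold. The test was also run on simulated data drawn from the means and spreads of each fit, and no conclusion is drawn from that here. No list was given a test of its own.

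The labels do not say that samples came from separate animals throughout, so p-values measure only the spread between these samples. Deviations from the layer means correlated across genes at 0.21, 0.23 and 0.11 for E12 samples numbered 2, 3 and 4. Endoderm 3 with mesenchyme 4 gave 0.13, above the 0.11 of the samples numbered 4. These weak correlations cannot decide whether the titles' numbers pair the samples. Adult title numbers 12 and 41 are shared by a crypt and a villus sample.

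Genes, classes and lists were chosen with earlier results of these data known. Values by array are given for the 3 widest called differences in each direction of fibrillar collagens, basement membrane collagens, laminin chains and linkers, the widest in each other class, a fixed set of core genes, and, as means or differences, the widest called differences of each partner and marker list; other genes are given by difference or count.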

Additional observations from a re-analysis of the deposited data

How the results depend on the processing

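Alternatives changed the normalization, the filter on dim genes, the choice of probe set, the variance prior, the samples left out and the replicate block; the brightest endoderm probe sets at E12 and the E12 probe sets in the adult fit were added after seeing the data. Between the E12 layers, 34 of 36 named members kept direction and side of the threshold under every alternative that tested them, and the exceptions, Col2a1 and Col4a6, lost their calls only. With the replicate number as a block, no other named E12 member changed its call. Between villus and crypt, 10 of 15 named members kept both. Lama5 made 1 member higher in crypt, in place of 0, under quantile normalization, by the median of probe sets and without villus V41. Over samples left out the range was 0 to 1. Without probe sets whose names end in _a_at, _s_at or _x_at, 1 member in place of 2 was higher in villus. The only probe set of Lama3 ends in _a_at, so Lama3 was not tested there. The uncalled differences of Col1a1 (0.0059 with quantile normalization), Col1a2 (-0.04 by the median of probe sets, -0.00059 with the replicate block, -0.0028 to 0.09 over samples left out, the lowest without crypt K21) and Lama2 (-0.0092 with the block, -0.04 to 0.16 over samples left out, the lowest without villus V275) changed sign around 0. The adult pairing rests on 2 shared numbers (correlations of 0.16 and 0.068), and with that block 835 genes were higher in villus and 424 in crypt, in place of 1686 and 1496, Lamb3 was called (3.01, adjusted p 0.023), and 2 genes each were called among synthesis, receptor and associated-protein genes. Leaving out samples gave 1022 to 1552 genes higher in villus and 827 to 1540 in crypt. Without a dim gene filter 4 synthesis genes were called, and 2 associated proteins at the 50th percentile filter. Signals near background limit what can be seen of the untested members.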
